A study of Drosophila melanogaster with 3 samples.

Results

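Small nucleolar RNA genes and the genes that host them were examined for binding by CG8089 in Drosophila melanogaster embryos. All genes of the Ensembl annotation whose symbol begins with snoRNA: or scaRNA: were taken, which gave 274 genes, 257 of them snoRNA and 17 scaRNA genes, among 18164 genes on 6 chromosome arms. A host was the shortest longer gene that contained the small RNA gene on the same strand. In this way 251 of the 274 lay in 96 hosts, and 23 had none. The tagged protein was mapped by chromatin immunoprecipitation and sequencing (ChIP-seq) with an antibody against GFP. The single group was whole embryos of mixed sex, aged 0 to 24 h, of 1 transgenic line that makes CG8089 with GFP at its C-terminal end, with 3 biological replicates numbered 2, 3 and 4. There was thus no second condition to set it against. All cell types of the embryo were pooled, so binding in any one of them cannot be read from these lists.

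Small nucleolar RNAs guide the chemical modification of ribosomal RNA in the nucleolus. Box C/D RNAs direct methylation of the ribose, box H/ACA RNAs direct conversion of uridine to pseudouridine, and the related scaRNAs guide modification of spliceosomal RNAs in Cajal bodies. Most fly snoRNAs have no promoter of their own and are cut out of spliced introns of a host transcript, so that the host's promoter sets their transcription. The hosts include many ribosomal protein genes, as well as Uhg genes, which are noncoding hosts whose introns carry the snoRNAs.

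The deposited lists give for each peak a position, a summit and a signal by which the authors scored it. No source used here gives the scale of that signal. Ranks are therefore used, 1 being the strongest peak of a list. The reproducible list held 3233 peaks and was identical to the 3233 strongest entries of the pooled list. The pooled list and each replicate's list held 30000 entries, which include weak ones. A host or other gene is called bound here when a reproducible summit lies no more than 500 bp from a transcription start site (TSS) of any of its annotated transcripts. For small RNA genes the annotated gene start was used. The term says nothing of function. Fragments of 200 to 800 bp were sequenced, so a summit closer than that to both a snoRNA gene and its host's TSS cannot be assigned to 1 of them by distance alone.

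The promoters below are printed because they belong to the bound hosts described next, followed by 2 unbound hosts that carry many snoRNA genes. Each runs from 70 bases before to 30 bases from the TSS, 5′ to 3′ on the gene's strand, in the RefSeq copy of the Release 6 genome (dm6). Capitals mark ACACTG or its reverse complement CAGTGT, the core promoter element Motif 1 (GGTCACACT, which ends in ACACT and so shares bases with ACACTG when a G follows), or TCTTTT on the gene's strand within 10 bp of the TSS, a form of the TCT initiator of ribosomal protein genes. RpL14 is at chr3L:8600936-8601035 on the plus strand, RpL28 at chr3L:3222931-3223030 on the minus strand, RpL22 at chrX:765101-765200 on the minus strand, RpS5a at chrX:17148235-17148334 on the minus strand and CG1142 at chr3R:7473752-7473851 on the minus strand. Of the unbound hosts, Arpc2 is at chr2L:20416987-20417086 on the plus strand and kra at chr3R:5601107-5601206 on the minus strand.
RpL14: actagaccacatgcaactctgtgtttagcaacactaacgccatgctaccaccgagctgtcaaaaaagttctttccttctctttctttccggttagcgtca
RpL28: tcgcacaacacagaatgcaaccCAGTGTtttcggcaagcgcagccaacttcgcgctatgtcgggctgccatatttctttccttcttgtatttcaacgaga
RpL22: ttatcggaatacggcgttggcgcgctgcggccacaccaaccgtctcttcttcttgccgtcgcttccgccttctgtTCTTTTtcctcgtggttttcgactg
RpS5a: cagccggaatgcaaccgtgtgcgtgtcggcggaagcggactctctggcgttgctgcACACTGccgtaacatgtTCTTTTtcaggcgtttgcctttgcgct
CG1142: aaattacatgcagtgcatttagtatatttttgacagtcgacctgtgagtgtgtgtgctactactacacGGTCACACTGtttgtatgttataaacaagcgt
Arpc2: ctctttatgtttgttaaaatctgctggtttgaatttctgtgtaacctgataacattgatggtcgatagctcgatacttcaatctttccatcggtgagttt
kra: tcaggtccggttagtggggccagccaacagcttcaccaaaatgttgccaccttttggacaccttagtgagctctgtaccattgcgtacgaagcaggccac

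The 3 small RNA genes below are printed because a reproducible summit lies within 500 bp of their start while they sit in an intron of a bound host. The gene snoRNA:U49:66Da lies in an intron of RpL14 at chr3L:8601473-8601552 on the plus strand, Me18S-C1096 in an intron of RpL3 at chr3R:11222405-11222489 on the plus strand and Psi18S-1275 in an intron of RpS29 at chr3R:9778398-9778537 on the plus strand. Capitals mark the C and D boxes of the box C/D genes and the ACA near the 3′ end of the H/ACA gene, as found by a search for those letters.
snoRNA:U49:66Da: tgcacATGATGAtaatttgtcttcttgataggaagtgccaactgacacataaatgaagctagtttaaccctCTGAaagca
snoRNA:Me18S-C1096: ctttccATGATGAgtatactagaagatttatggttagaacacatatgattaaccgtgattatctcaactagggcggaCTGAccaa
snoRNA:Psi18S-1275: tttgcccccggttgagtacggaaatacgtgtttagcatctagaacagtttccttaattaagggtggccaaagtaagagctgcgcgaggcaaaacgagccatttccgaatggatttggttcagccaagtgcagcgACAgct

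Start sites of host genes were bound more often than the starts of the snoRNA genes within them. Of the 96 hosts, 44 (45.8%) had a reproducible summit within 500 bp of a TSS, against 12.4% of all genes. Of the 274 snoRNA and scaRNA genes, 16 (5.84%) had one within 500 bp of their own start, against 11.0% of all genes. That order turned with a window of 1000 bp, at 47 of 274 (17.2%), against 14.0% of all genes. By way of their hosts, 97 of the 274 (35.4%) had a bound start site upstream in the same transcription unit. Of all genes, 12.4% had a bound TSS of their own. Of the 251 genes with a host alone, the share was 97 (38.6%). Without ribosomal protein hosts it was 31 of 180 (17.2%), where the 23 genes without a host are again left out. All 97 began downstream of the host TSS nearest the summit, by 99 to 125111 bp with a median of 1312 bp. For hosts with 1 TSS this order follows from the definition of a host, which contains its small RNA genes. Members of 1 host share its peak, so that these 97 genes stand for 44 sites.

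The hosts fell into 3 kinds that differed in how often they were bound. Of 28 hosts that encode cytoplasmic ribosomal proteins, 25 (89.3%) were bound, against 43 of 60 (71.7%) ribosomal protein genes without a snoRNA gene. Here and below, the latter are ribosomal protein genes to which no small RNA gene was assigned. RpL23A, which was bound, is among them, although it contains the snoRNA genes assigned to the shorter gene Uhg7. Of 58 other protein-coding hosts, 18 (31.0%) were bound, against 1819 of 11680 (15.6%) protein-coding genes that contain an intron but are neither hosts nor ribosomal protein genes. Of 10 noncoding hosts, only Uhg4 was bound, against 171 of 3246 (5.27%) other noncoding RNA genes.

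**Figure D1:**
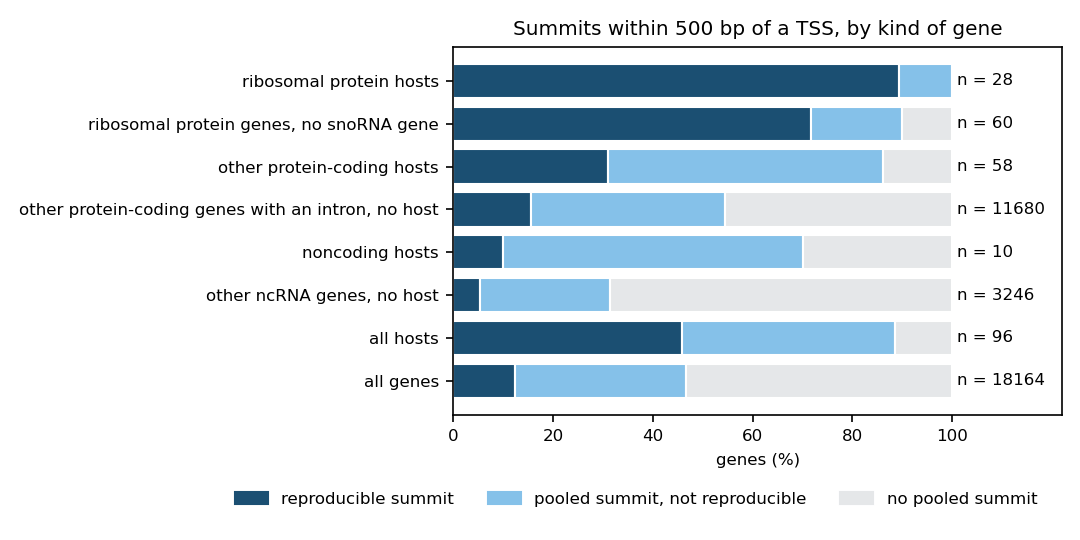
Horizontal bars give the percentage of genes of each kind with a reproducible summit within 500 bp of a TSS (dark), with a summit in the pooled list but no reproducible one (light blue) or with neither (grey); n is the number of genes. The dark part covers 89.3% of ribosomal protein hosts, 31.0% of other protein-coding hosts and 1 of 10 noncoding hosts, against 12.4% of all genes.

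When the pooled list was used, weak peaks included, 85 hosts (88.5%) had a summit within 500 bp of a TSS, against 46.7% of all genes. All 28 ribosomal protein hosts had one. Another 32 of 58 other protein-coding hosts (55.2%) had a pooled summit that was not reproducible, against 38.9% of the intron-containing protein-coding genes. Among noncoding hosts this held for 6 of 10 (60.0%), against 26.2% of other noncoding RNA genes. Pooled summits at hosts that were not reproducible ranked between 3309 and 26731, with a median of 8879.

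The same shares were then taken in each replicate, using the 3233 strongest peaks of its own list. Hosts had a summit at a TSS in 41.7% of cases in replicate 2, 46.9% in replicate 3 and 45.8% in replicate 4, against 12.4%, 11.8% and 11.8% of all genes in the same replicates. The difference was 32.8 ± 3.13 percentage points (SD, n = 3), and hosts were above all genes in 3 of 3 replicates. An exact two-sided sign-flip permutation test over the 3 replicates gave p = 0.25, the smallest value this design allows.

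Each kind of protein-coding host was also set against its own comparison genes. Other protein-coding hosts exceeded intron-containing protein-coding genes by 16.5 ± 5.65 percentage points (SD, n = 3), with 25.9%, 34.5% and 34.5% in replicates 2, 3 and 4, against 15.9%, 14.6% and 14.8%. Ribosomal protein hosts exceeded ribosomal protein genes without a snoRNA gene by 13.9 ± 8.57 percentage points (SD, n = 3). That difference was 22.4 in replicate 2, 14.0 in replicate 3 and 5.24 in replicate 4, and it varied widely between replicates. Both exact permutation tests again gave p = 0.25, and whether the 2 differences themselves differ was not tested.

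**Figure D2:**
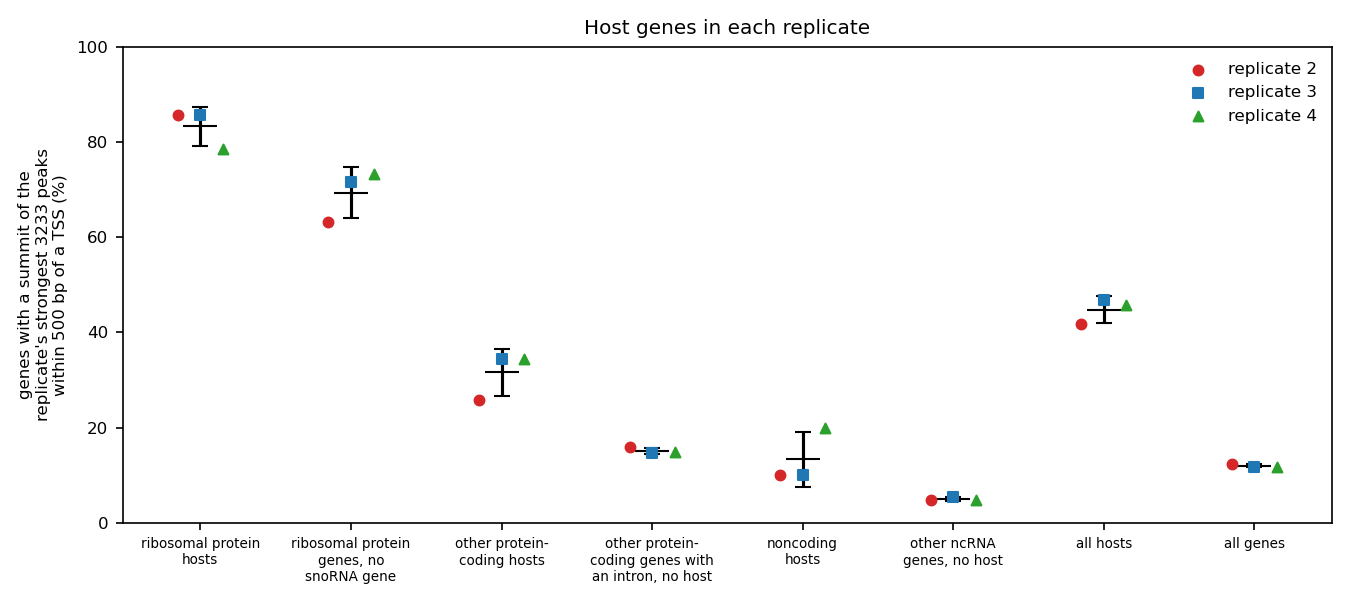
Points give, for replicates 2, 3 and 4, the percentage of genes of each kind with a summit of that replicate's 3233 strongest peaks within 500 bp of a TSS; horizontal lines are means and bars the SD over 3 replicates. Hosts as a whole sit at 41.7% to 46.9% in every replicate, above all genes at 11.8% to 12.4%.

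Genes with several start sites offer more sequence for a summit to lie near, so the shares were also taken by the number of annotated TSS. Among other protein-coding hosts with 1 annotated TSS, 6 of 27 (22.2%) were bound, against 10.4% of protein-coding genes with 1 TSS that are neither hosts nor ribosomal protein genes. At 4 of these 6 hosts, Stt3A, Fib, dmt and anchor, another gene's TSS was nearer the summit. With 2 or more TSS it was 12 of 31 (38.7%), against 24.6%. Counted at the gene start alone, the class with 2 or more TSS gave 6 of 31 (19.4%), against 17.8%, which is close to the share of the comparison genes. No test was made between these shares. By the number of snoRNA genes held, 27 of 59 hosts of 1 snoRNA gene (45.8%) and 12 of 23 hosts of 2 to 4 (52.2%) were bound. Of hosts of 5 or more, 5 of 14 (35.7%) were, against 12.4% of all genes.

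Bound hosts had a median rank of 742.5, against 1478 over all bound genes, and a median signal of 272.4, against 184.8. Among ribosomal protein hosts the median rank was 665, against 833 for ribosomal protein genes without a snoRNA gene, with signals of 287.6 against 255.8. Among other protein-coding hosts it was 1292.5, against 1478 for the intron-containing protein-coding genes, with signals of 200.7 against 184.8. Ranks of ribosomal protein genes were thus high with and without a snoRNA gene. Of the 44 summits, 37 (84.1%) lay upstream of the nearest host TSS, against 81.0% over all bound genes, and the median distance was 48.5 bp against 132 bp. Ribosomal protein hosts were the closest, at a median of 22 bp (3 to 165 bp), while other protein-coding hosts had a median of 149.5 bp (15 to 471 bp), against 129 bp for their comparison genes. For ribosomal protein genes without a snoRNA gene the median was 24 bp, so closeness to the TSS was shared by the ribosomal protein genes in general.

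**Figure D3:**
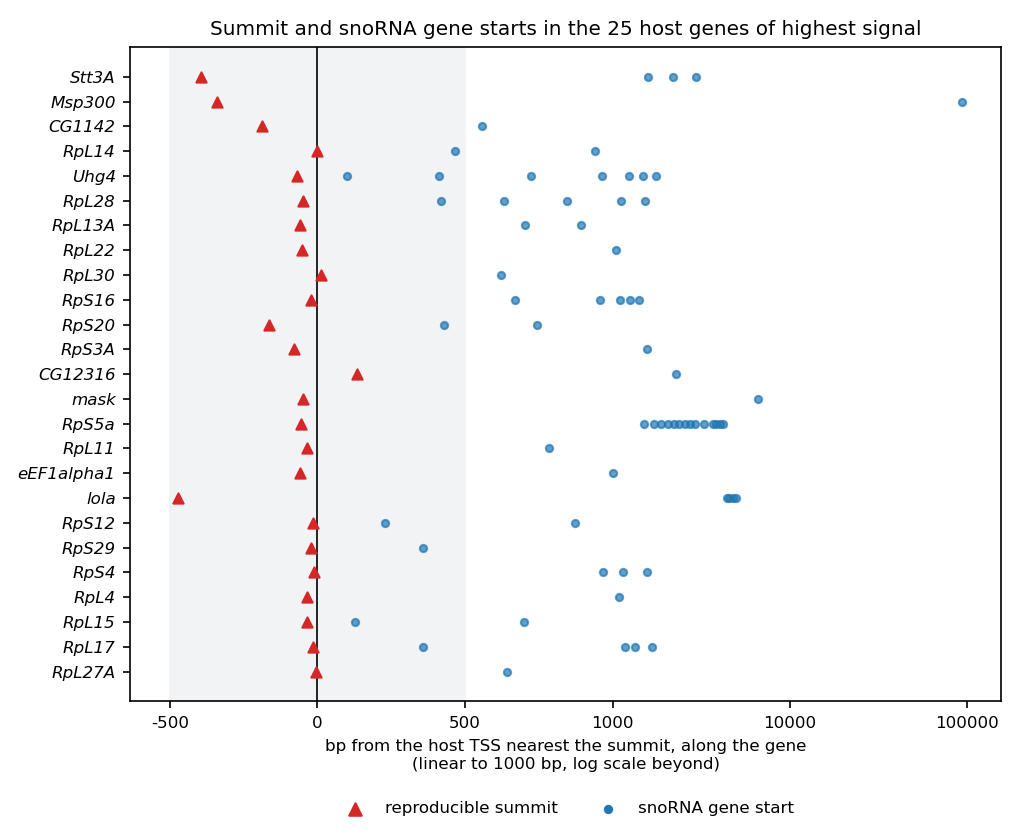
Each row is 1 of the 25 bound hosts of highest signal, from highest to lowest; the triangle is the reproducible summit and circles are starts of the snoRNA and scaRNA genes it holds, in bp along the gene from the host TSS nearest the summit (0), on an axis that is linear to 1000 bp and logarithmic beyond. Grey marks 500 bp to either side. Most triangles lie close to 0, with RpL14 at 3 bp and lola farthest at 471 bp. Every circle lies to the right of 0, which for hosts with 1 TSS follows from the definition of a host.

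Ribosomal protein hosts, whose products build the subunits of the ribosome, made up 17 of the 25 bound hosts of highest signal. RpL14, which carries 2 snoRNA genes, had its summit 3 bp from the TSS at rank 126 of the pooled list (signal 586.5), and ranked 397, 76 and 119 in replicates 2, 3 and 4. RpL28, with 5 snoRNA genes, ranked 221 in the pooled list and 263, 317 and 230 in the replicates, with the summit 49 bp from the TSS. RpL22, with 1 snoRNA gene, ranked 229 and then 276, 254 and 231, at 51 bp. All 3 ranked within the first 500 of each replicate's list.

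The other ribosomal protein hosts among the 25 were RpL13A (rank 222), RpL30 (267), RpS16 (340), RpS20 (344), RpS3A (368), RpS5a (471), RpL11 (516), RpS12 (563), RpS29 (653), RpS4 (665), RpL4 (725), RpL15 (760), RpL17 (803) and RpL27A (907). RpS29 was the steadiest of the 25, at ranks 686, 711 and 748 in replicates 2, 3 and 4. RpS5a, the ribosomal protein host with the most snoRNA genes at 14, ranked 404, 1264 and 244, weakest in replicate 3. Of the 25 bound ribosomal protein hosts, 21 were among the 3233 strongest peaks in all 3 replicates.

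The 3 strongest peaks at any host belonged to other protein-coding genes. Stt3A, a catalytic subunit of the enzyme that attaches N-linked sugars to proteins, had the highest signal of any host (789.0, rank 68) and ranked 136, 45 and 60 in replicates 2, 3 and 4. Its summit lay 396 bp upstream of its TSS and nearer to the TSS of bves, so the peak cannot be assigned to Stt3A by distance. Msp300, a nesprin that links nuclei to the cytoskeleton, ranked 100 (134, 186 and 78 in the replicates) with the summit 339 bp upstream of the nearest host TSS. Both were strong in every replicate, but both summits lay outside a window of 250 bp.

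CG1142 ranked 106 with its summit 189 bp upstream of the TSS, and 205, 63 and 137 in replicates 2, 3 and 4. CG12316 ranked 424, mask, an ankyrin repeat and KH domain protein, 460, eEF1alpha1, a translation elongation factor, 547, and lola, a zinc-finger transcription factor, 557. The lola summit lay 471 bp from its TSS, the farthest of the 44. CG1142, CG12316 and mask each hold a single scaRNA gene, and lola holds 4 snoRNA genes.

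For 38 of the 44 bound hosts the host's own TSS was the nearest of any gene, for 25 of 25 ribosomal protein hosts, 12 of 18 other protein-coding hosts and Uhg4. The like share was not taken over all 2247 bound genes, which lay at 1577 distinct peaks. In the other 6 another gene's TSS was nearer, among them bves at Stt3A, Pdss2 at skd, CG3085 at Fib, trbd at dmt and Vps60 at anchor, neighbours that were named after their values were seen. At the edge of the 500 bp window, lola (471 bp), skd (447 bp), Stt3A (396 bp), Msp300 (339 bp) and anchor (221 bp) were the bound hosts with the most distant summits. The nearest unbound hosts were CG3902 (638 bp), lncRNA:CR42491 (1371 bp), Uhg7 (1454 bp), kis (1603 bp) and Uhg3 (1840 bp). The small RNA genes of lncRNA:CR42491 and Uhg7 also lie in the longer genes RpL22 and RpL23A, respectively, which were bound.

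Uhg4 was the exception among noncoding hosts. It holds 7 snoRNA genes, and its summit, 68 bp upstream of the TSS, ranked 184 in the pooled list (signal 494.8) and 162, 253 and 222 in replicates 2, 3 and 4. The pooled summits of the other Uhg hosts ranked 3562 (Uhg5), 4886 (Uhg1), 7261 (Uhg7), 13146 (Uhg3), 14256 (Uhg8) and 23801 (Uhg2). Of these only Uhg7 reached the 3233 strongest peaks of a replicate, with rank 2931 in replicate 4 beside 29051 and 15736 in replicates 2 and 3. The lncRNA hosts CR31647, CR42491 and CR45184 had no pooled summit at a TSS. With 1 bound gene of 10, the difference from other noncoding RNA genes rests on Uhg4 alone.

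Most of the hosts with the largest numbers of snoRNA genes were not bound, but of all genes only 12.4% were. Arpc2, a subunit of the Arp2/3 complex that nucleates actin, holds the most, 17, and had no pooled summit at a TSS. It appeared in replicate 2 only, at rank 2894. Uhg1, with 16, ranked 9314, 15316 and 6182 in replicates 2, 3 and 4. The chromatin remodelling ATPase gene dom, with 15, was missing from replicate 2 and ranked 2776 and 3304 in replicates 3 and 4.

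The others near the top of that order were mixed. Uhg5 (11 snoRNA genes) was missing from replicate 2 and ranked 3292 and 5676 in replicates 3 and 4, while kra, a translation regulator with 8, ranked 5069, 3105 and 3210. Of the 4 hosts with 7, Uhg4 and RpS7 were bound, the second at rank 2364, and the hnRNP gene Hrb98DE and Nop60B were not, with pooled ranks of 4990 and 5664. Of the 6 hosts with 8 or more, only RpS5a was bound. Of the 14 with 5 or more, 5 (35.7%) were, against 12.4% of all genes.

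**Figure D4:**
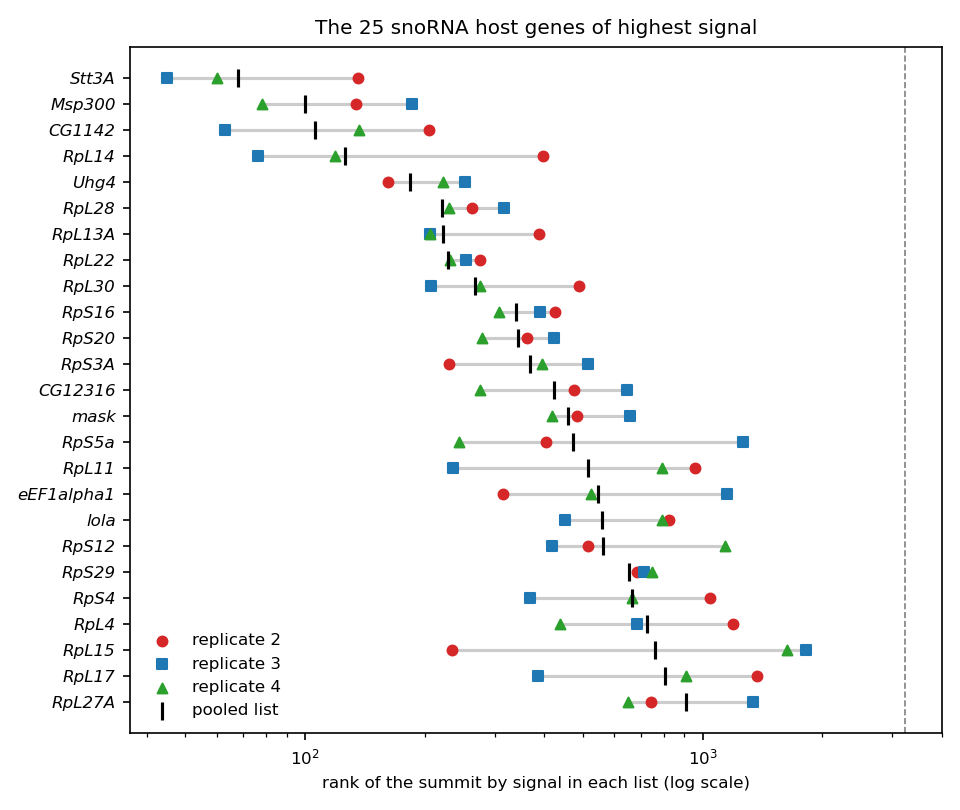
For the 25 bound hosts of highest signal, coloured points give the rank of the summit at the host in each replicate's list and the black tick its rank in the pooled list, on a log scale; the dashed line is at 3233, the size of the reproducible list. Grey lines span the replicates; Stt3A and Msp300 stay among the strongest ranks in all 3, and RpL15 spreads most.

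Replicates differed in the ranks they gave to bound hosts. Of the 44 bound hosts, 34 were among the 3233 strongest peaks of all 3 replicates, 7 of 2 and 3 of 1. A host with a pooled rank near 3233 falls below that cut more easily. These counts therefore do not compare the spread of hosts of high and low signal, which was not tested. Ranks differed most at sta, a ribosomal protein host, with 14671, 761 and 2664 in replicates 2, 3 and 4. Next were anchor (23409, 1536 and 3028), hts, the fly adducin (14234, 1635 and 1145), RpS6 (1513, 11828 and 5197) and RpL15 (234, 1817 and 1628). In 3 of these 5, replicate 2 was far the weakest, and in RpS6 and RpL15 it was the strongest. For dmt and tou replicate 2 had no summit at a TSS at all.

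The 16 snoRNA genes with a reproducible summit near their own start were examined next, at 15 distinct peaks. Of these, 14 had a host, the host was bound in 13, and in those 13 the summit was nearer to the host's TSS than to the snoRNA gene. Of the 16, 10 were in ribosomal protein hosts. Distances from the snoRNA start were 143 to 495 bp, with a median of 375.5 bp. In the 3233 strongest peaks of replicates 2, 3 and 4, 10, 18 and 16 of the 274 small RNA genes had a summit at their start. By any TSS, 12.4%, 11.8% and 11.8% of all genes had one in the same replicates. The share of all genes by gene start was not taken in single replicates. With the pooled list it was 88 of 274 (32.1%), against 44.2% of all genes.

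The snoRNA genes were then sorted by their distance from the host's TSS. Of 35 hosted genes that began within 500 bp of a host TSS, 11 (31.4%) had a reproducible summit near their start, against 2 of 51 (3.92%) at 501 to 1000 bp and 1 of 165 (0.606%) beyond 1000 bp. A bound host has its summit near its TSS by definition, so in bound hosts counts must fall with this distance. For U49:66Da, printed above, the summit was 3 bp from the RpL14 TSS and 470 bp from the snoRNA start. It ranked 76 and 119 in replicates 3 and 4. In replicate 2 the RpL14 summit ranked 397, but no summit lay within 500 bp of the snoRNA start. For Psi18S-1275 the RpS29 summit was 23 bp from the host TSS and 379 bp from the snoRNA start, at ranks 686, 711 and 748. The summit near Me18S-C1096 was 26 bp from the RpL3 TSS and 485 bp from the snoRNA start. At the RpL3 TSS the summits ranked 1346, 675 and 1833 in replicates 2, 3 and 4. Within 500 bp of the snoRNA start, replicate 3 had no summit and the strongest of replicate 2 ranked 20052.

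The small RNA genes were also sorted by the modification their symbols name. The host was bound for 26 of 78 methylation guides (33.3%), 43 of 106 pseudouridylation guides (40.6%) and 10 of 24 orphans (41.7%), whose target is unknown. It was bound for 11 of 49 genes with other names (22.4%) and 7 of 17 scaRNA genes (41.2%). Of all genes, 12.4% had a bound TSS. A summit within 500 bp of the start itself was found for 3 methylation guides (3.85%), 5 pseudouridylation guides (4.72%) and 5 orphans (20.8%). It was found for 3 genes with other names (6.12%) and 0 scaRNA genes, against 11.0% of all genes. These guides share hosts, and no test was made between the kinds.

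The scaRNA genes, which act on spliceosomal RNAs, sat in 15 hosts, of which 7 were bound (46.7%), against 12.4% of all genes. Bound were the hosts of scaRNA:MeU2-C28 (Stt3A), MeU5-C46 (CG1142), MeU5-U42 (CG12316), MeU2-G25 (mask), PsiU6-40 (skd, a Mediator subunit), PsiU1-6 (dmt) and MeU4-A65 (anchor). Not bound were those of scaRNA:PsiU2-38.40.42 (bur), scaRNA:PsiU2-35.45 (Gp210), PsiU2-55 (Prp8), PsiU5-44 (tra2), MeU2-48 (hfp), MeU4:25F-C137 (CG2926), MeU2-C41 (lds) and MeU5-G38 (pit). At Stt3A, skd, dmt and anchor another gene's TSS was nearer the summit. None of the bound 7 was a ribosomal protein gene, while 25 of the 44 bound hosts overall were. The scaRNA genes MeU1:95C-A24 and MeU1b-A234 had no host.

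Only 3 small RNA genes had a reproducible summit near their start and no bound host. Or-CD4, an orphan in the noncoding host Uhg5, begins 2652 bp from the host's TSS and had a summit 432 bp away at rank 2893, with 2577, 6850 and 1607 in replicates 2, 3 and 4. Or-ACA6, without a host, had one 445 bp upstream at rank 1510, with 1571, 1238 and 1524, much the same in every replicate. The host-free gene snoRNA:185 had a summit 156 bp away at rank 3025, with 4457, 2471 and 2161.

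Of the 23 genes without a host, 2 (8.70%) thus had a reproducible summit within 500 bp, against 11.0% of all genes. The peak at Or-ACA6 was also the nearest one to Or-CD13 (552 bp), MeU1b-A234 (846 bp) and Or-ACA7 (1076 bp), which lie in the same stretch, inside egr but on the opposite strand. MeU1:95C-A24 lay 590 bp from a summit at rank 2348 whose nearest TSS was that of snRNA:U1:21D. Several host-free genes had a weak pooled summit almost on their start: Psi18S-301 at 13 bp (rank 5051), Psi28S-3342 at 18 bp (4506), Psi18S-176 at 20 bp (14364), U3:9B at 38 bp (6924) and Or-aca4 at 90 bp (26672). That is 5 of 23 (21.7%) within 100 bp, against 17.4% of all genes and 9 of 251 (3.59%) hosted ones, a share close to that of genes in general.

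Genes for the proteins that work with these RNAs were taken as a list of 14. A reproducible summit lay at a TSS of 4 (28.6%), against 12.4% of all genes. The count was 2 (14.3%) without replicate 2, against 7.69% of all genes, and also 2 in the stronger 1616 peaks, against 6.74%. They were Nopp140, a nucleolar chaperone of snoRNPs, at rank 1073 (1005, 1606 and 1167 in replicates 2, 3 and 4), Fib, the methyltransferase of box C/D particles, at 1595 (1765, 2841 and 1689), NHP2, a core H/ACA protein, at 2130 (1740, 1963 and 4793), and pont, an ATPase of particle assembly, at 2268 (1803, 3795 and 2145). The Nopp140 and Fib peaks were among the strongest 3233 of all 3 replicates, and the other two were in 2 of 3. Fib is itself a host of 1 snoRNA gene.

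The remaining members of the list were weaker or unlisted. A pooled summit that was not reproducible lay at rept (rank 3585), nop5 (4400), hoip (5441), Nop60B, the pseudouridine synthase (5664), Gar1 (22040), coil, which encodes coilin of Cajal bodies (26149), and Nop10 (26421). Nop56, WDR79 and CG10341 had no pooled summit at a TSS. Core proteins of the box C/D particle were thus divided at 500 bp, with Fib bound and nop5, Nop56 and hoip not. The TSS of CG3085 was nearer the Fib summit than that of Fib, so this peak cannot be assigned to Fib by distance. A reproducible summit lay 697 bp from a TSS of Nop56. At 1000 bp, 5 of the 14 genes on the list (35.7%) were bound, against 15.2% of all genes.

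The letters of the promoters were searched in a window of 250 bases before to 50 from the gene start, on both strands except for TCTTTT. Bound genes are those with a summit at any TSS. Of the 44 bound hosts, 38 had one within 500 bp of the gene start, as had 1989 of all 2247 bound genes. In the others the window searched was not at the start site with the summit. The DNA replication-related element, DRE (TATCGATA), was present in 10 of 44 bound hosts (22.7%) and 8 of 52 unbound hosts (15.4%), against 13.0% of all bound genes and 7.51% of all genes. ACACTG was found in 16 of 44 (36.4%) and 9 of 52 (17.3%), against 27.7% and 18.0%. GGTCACACT was found in 4 of 44 (9.09%) and 4 of 52 (7.69%), against 7.79% and 4.79%. The GAGA element, GAGAGAG, was in 2 of 44 (4.55%) and 0 of 52, against 6.76% and 5.49%.

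Ribosomal protein genes held DRE at like shares with and without a snoRNA gene. It was in 8 of 28 ribosomal protein hosts (28.6%), against 18 of 60 ribosomal protein genes without a snoRNA gene. Within 100 bp of the summit it was in 7 of 25 bound ribosomal protein hosts and 0 of 18 bound other protein-coding hosts, against 3.80% of all reproducible peaks. TCTTTT within 10 bp of the start was in 4 of 28 ribosomal protein hosts (14.3%), among them RpL22 and RpS5a printed above, and 2 of 10 noncoding hosts, against 0.743% of all genes. Among ribosomal protein genes without a snoRNA gene it was in 10 of 60 (16.7%). RpL14, the strongest ribosomal protein host, held none of these letters in its window.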

How the data were processed

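ChIP-seq peak lists on build dm6 were analysed for 3 biological replicates of 1 group. Per the deposited file descriptions, the authors called peaks on single replicates and on the pool of all 3, then filtered the pooled calls by irreproducible discovery rate (IDR) to give the reproducible list. The sources used here name neither the peak caller nor the IDR threshold. The deposited lists hold a signal value per peak, used only to rank peaks within a list, and the authors' −log10 q-value per peak, which was 3.81, the highest value, for 3193 of the 3233 reproducible peaks and so was not used for ranking. With no read numbers in these sources, the depth of each library is unknown and no interval was computed from it. Control libraries and the dm3 lists were not analysed here.

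Gene starts and TSS came from Ensembl release 115 (FlyBase annotation 6.54), without transposable elements, and sequences from the RefSeq Release 6 genome, which is dm6. Of the peaks, 0 passed a chromosome end and 0 lay off the 6 arms. Distances ran from summit to start. Of the 274 small RNA genes, 12 lay in 2 genes on their strand, and the shorter was taken as the host. Ribosomal protein genes (88 cytoplasmic) were taken by symbol, with sta. Gar1 and Nop10 of the snoRNP list were matched through older symbols. Shares were counted beside those of all genes, and an exact sign-flip permutation test was run over replicates. The share of a replicate used its 3233 strongest peaks. Whether the replicates came from separate embryo collections is known only from the labels, which call them biological.

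Genes were named by rule: the 25 bound hosts of highest signal, the 8 hosts with most snoRNA genes, all scaRNA genes, snoRNA genes with a summit but no bound host, up to 10 host-free genes nearest a summit, the 5 hosts whose rank varied most, the snoRNP list and the hosts at the window's edge. Some single-gene values are not reported here. The members and lists were chosen with earlier results of these data known. Alternatives were other windows, the stronger 1616 peaks, the pooled list, other definitions of host and TSS, and lists without each replicate; 2 of them, the gene start only and the TSS nearest the summit, were chosen after seeing the data. On simulated summits the scripts found 195 of 195 genes planted within 500 bp and called 0 of 193 planted beyond it. Python 3.11.15, numpy 2.4.6 and matplotlib 3.10.9 were used.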

Additional observations from a re-analysis of the deposited data

How the results depend on the processing

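Bound hosts, 44 of 96, numbered 40 (41.7%) at 250 bp and 45 (46.9%) at 1000 bp, against 9.78% and 15.2% of all genes. They were 33 (34.4%) with the stronger 1616 peaks, against 6.74%, and 38 (39.6%) with the gene start only, against 11.0%. They were also 38 when the host had to own the TSS nearest the summit, a rule that was not applied to all genes. With every containing gene counted as a host, they were 46 of 99 (46.5%). All pooled peaks gave 85 of the 96 (88.5%), against 46.7% of all genes. Without ribosomal protein hosts, 19 of 68 (27.9%) were bound, against 12.4%. Without 1 of the replicates, 34 to 38 hosts were bound, where all genes were at 7.47% to 8.73%. Msp300, Stt3A, lola and skd were lost at 250 bp. Small RNA genes with a bound host, 97, were 102 (37.2%) with every containing gene counted as a host, against 12.4% of all genes. They were 220 (80.3%) with all pooled peaks, against 46.7%. Leaving out 1 replicate gave 80 to 87 (29.2% to 31.8%), against 7.47% to 8.73%. Without ribosomal protein hosts and without the 23 host-free genes they were 31 of 180 (17.2%), against 12.4% of all genes with a bound TSS. The like share with ribosomal protein hosts was 97 of 251 (38.6%). Small RNA genes with a summit at their start, 16, were 7 (2.55%) at 250 bp, against 8.54% of all genes, and 47 (17.2%) at 1000 bp, against 14.0%. They were 10 (3.65%) in the stronger peaks, against 5.87%, and 88 (32.1%) with all pooled peaks, against 44.2%. Without each replicate in turn they were 12 (4.38%), against 6.49% to 7.66%. So their share lay above that of all genes at 1000 bp and below it at 250 and 500 bp. Bound snoRNP genes, 4, were 4 (28.6%) at 250 bp, against 9.78% of all genes, and 5 (35.7%) at 1000 bp, against 15.2%. They were 2 (14.3%) in the stronger peaks, against 6.74%, and 11 (78.6%) with all pooled peaks, against 46.7%. Without 1 replicate they were 2 to 3 (14.3% to 21.4%), against 7.47% to 8.73%, with 2 without replicate 2. The difference between hosts and all genes, 32.8 percentage points, was 25.3 to 38.5 with other windows or numbers of peaks and 31.6 to 34.6 without 1 replicate. With hosts that are no ribosomal protein gene set against other protein-coding genes, so that both sides changed, it was 15.2. Hosts kept without each replicate in turn numbered 33. No paired analysis was possible because there was 1 group, so replicate numbers pair no samples across groups; shares of hosts and other genes were subtracted within each replicate. The reproducible list is the strong end of the pooled list made from these replicates, so their agreement follows partly from its making.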
